A study of Mus musculus with 24 samples.

Results

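The comparison described here is the late transcriptional response of wild-type inhibitory neurons: cultures derived from the medial ganglionic eminence (MGE) of Npas4 wild-type (WT) mouse embryos, depolarized for 6 h, against cultures kept silent. It rests on 4 of the 24 arrays of the series, chosen by their titles: 2 arrays at 6 h and 2 at 0 h. All groups of the series share the C57Bl/6 background, embryonic day 14 as the age of the tissue, and 10 days in culture. From day 9 all cultures, the controls included, sat overnight in tetrodotoxin (TTX), a blocker of voltage-gated sodium channels, and AP-5, an antagonist of NMDA receptors. The 6 h group was then held in 55 mM extracellular KCl. The 0 h group had none of the KCl step. Further groups are used as points of reference: MGE WT cultures after 1 h of KCl, MGE cultures of Npas4 knockout (KO) littermates at 0 and 6 h, and cortex-derived (CTX) WT cultures at 0 and 6 h, each with 2 arrays. The labels do not say whether the repeats of a group were separate cultures or separate litters, so the p-values measure only the spread between these arrays, which may be technical.

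Raised extracellular potassium depolarizes the membrane and opens voltage-gated calcium channels. The calcium signal switches on a first wave of genes for transcription factors within minutes to an hour, and a later wave of genes whose products act at synapses, at the cell surface or outside the cell. The MGE is the embryonic source of many cortical interneurons that use GABA, among them those that make somatostatin or parvalbumin. Npas4, a basic helix-loop-helix PAS factor, is one of the rapidly induced factors and is known for its action on inhibitory synapses. The title of the series asks which activity-induced genes Npas4 regulates in inhibitory and in excitatory neurons of the cortex.

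Many activity-induced genes carry a cAMP response element (CRE) near their start, the site bound by CREB. Of the 20 largest rises reported below, 13 have a window of 250 bases before the start in the RefSeq promoter table (GRCm38.p6) that can be shown here, and 7 of the 13 hold the CRE half-site TGACG on either strand. Windows of 4 of them follow, 5′ to 3′ on the strand of the gene. These were chosen among the 20 largest rises for holding a full CRE or several half-sites. Their many matches thus follow from the choice. Capitals mark TGACG or its reverse complement CGTCA, and in Sstr2 they mark the full palindromic CRE, TGACGTCA, which holds both. The window of Nr4a1 is chr15:101266596-101266845 on the plus strand, that of Nr4a2 chr2:57124004-57124253 on the minus strand, that of Nr4a3 chr4:48045055-48045304 on the plus strand and that of Sstr2 chr11:113619077-113619326 on the plus strand.
Nr4a1: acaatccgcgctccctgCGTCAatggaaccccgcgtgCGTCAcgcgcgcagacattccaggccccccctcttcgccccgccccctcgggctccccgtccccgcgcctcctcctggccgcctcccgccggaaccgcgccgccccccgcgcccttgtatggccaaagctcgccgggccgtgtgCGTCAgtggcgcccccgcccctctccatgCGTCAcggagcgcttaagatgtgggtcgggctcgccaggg
Nr4a2: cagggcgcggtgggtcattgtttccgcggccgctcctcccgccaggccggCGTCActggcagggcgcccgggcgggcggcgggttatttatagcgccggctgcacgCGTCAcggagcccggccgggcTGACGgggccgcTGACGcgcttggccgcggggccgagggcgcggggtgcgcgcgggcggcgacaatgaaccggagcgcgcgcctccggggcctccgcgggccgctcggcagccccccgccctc
Nr4a3: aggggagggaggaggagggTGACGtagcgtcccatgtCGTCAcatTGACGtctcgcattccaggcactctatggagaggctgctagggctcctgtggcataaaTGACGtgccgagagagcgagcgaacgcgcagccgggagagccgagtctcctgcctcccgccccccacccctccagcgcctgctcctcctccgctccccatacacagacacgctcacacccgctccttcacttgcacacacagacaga
Sstr2: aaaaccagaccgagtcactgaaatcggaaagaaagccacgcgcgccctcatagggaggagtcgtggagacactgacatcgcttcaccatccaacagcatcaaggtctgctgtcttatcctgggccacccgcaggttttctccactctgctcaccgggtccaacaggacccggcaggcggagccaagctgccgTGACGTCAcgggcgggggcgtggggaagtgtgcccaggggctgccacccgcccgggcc

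Each of the 3 Nr4a windows holds 4 half-sites and no full CRE. In the shares by gene below, a gene can have several windows and counts when any of them holds a match. Genes with more windows thus had more chances of a match. Over the 10016 tested genes that have such a window, 31.0% held at least 1 half-site, against 39.6% of the 952 that rose at 6 h, 30% of the 1605 that fell and 30.2% of the 7459 that were not called. The share was 44.3% of the 61 genes that rose over 4-fold. The full CRE was in 3.11% of all these genes, 4.52% of the rising genes and 2.87% of the falling genes. Rising genes were also richer in G and C in their most GC-rich window, with a median of 64.4% against 61.6% over all. In 4 bins of GC content with about equal numbers of genes, from the lowest to the highest, the half-site was in 32.3%, 41.7%, 45.1% and 38.6% of rising genes, against 25.6%, 31.9%, 34.4% and 32.5% of all tested genes. Counted by window and not by gene, 17.8% of all 32851 windows of the promoter table, tested or not, held the half-site and 1.55% the full CRE. These shares by window are not comparable with those by gene. AP-1 sites (TGAGTCA) were in 4.52% of rising and 3.75% of all tested genes, and TCGTG, a core sequence bound by Npas4 dimers, was in 22.2% and 21.3%. These shares describe letters in a short window and carry no test.

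The intensities are those of an Affymetrix mouse genome array, which reads each gene with 1 or more sets of short probes. Of 18194 named genes 12378 passed the filter on dim probe sets and were tested, each through the probe set with the highest mean. Values are log2 intensities, a pair of values is repeat 1 and then repeat 2, and changes are differences of log2 means with the standard error (SE) of the limma fit (n = 2 arrays a group). Calls are at an adjusted p under 0.05, and with so few arrays a group the precision is low. The arrays of the 6 h group correlated at 0.986 over genes, with 288 genes over 2-fold apart. Those of the 0 h group correlated at 0.951, with 1507 genes over 2-fold apart. No other of the 12 groups had repeats so far apart. The SE uses a spread shared by all groups, so it can be too small for this comparison. Repeat 2 of the 0 h group stood apart: its median correlation with the other 11 MGE arrays was 0.927, against medians of 0.961 to 0.982 for the others. Repeat 1 of the 0 h group lay very close to MGE KO 0 h repeat 1, an array labelled with the other genotype: they correlated at 0.998 with 10 genes over 2-fold apart, the closest of all pairs of MGE arrays. Npas4, the targeted gene, was low in both and so does not check either label. Counts are therefore given with and without the arrays concerned.

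The cultures carried the markers of their label. Lhx6, the transcription factor that MGE-derived interneurons keep, measured 13.08 and 12.79 at 0 h and 12.74 and 12.74 at 6 h, against 10.00 and 9.54 at 0 h in CTX arrays. The GABA transporter gene Slc32a1 measured 12.88 and 13.11 at 0 h, against 9.80 and 9.24 in CTX. Of the markers of excitatory cortical neurons, Neurod6 measured 3.59 and 3.87 against 12.30 and 12.38 and Slc17a7 5.07 and 5.83 against 11.42 and 11.31. Others of that list did not separate the cultures this way: Cux2 measured 13.64 and 13.72 against 12.39 and 12.40, Cux1 12.43 and 12.72 against 11.39 and 11.64, and Bcl11b 13.10 and 12.83 against 13.01 and 12.88. Slc17a6, a transporter of glutamatergic cells, followed the repeat number, at 7.19 and 3.75 in the silenced and 8.05 and 3.75 in the 6 h arrays of MGE WT, and was likewise higher in repeat 1 than in repeat 2 of the MGE WT 1 h, KO 0 h and KO 6 h groups. Its part in the results was not tested. Of 17 interneuron markers tested 2 rose at 6 h, Dlx2 and Dlx6, and 0 fell; neither passed without 0 h repeat 2 or without 6 h repeat 1. These rises were 11.8% of the interneuron list, near the 9.53% of all genes tested that rose. The mean level of the interneuron markers was 11.34 and 10.99 at 0 h and 11.48 and 11.29 at 6 h. Markers of other cells the cultures could hold were also present, and few were called: 0 of 12 excitatory, 0 of 10 astrocyte, 0 of 8 microglial, 0 of 9 vascular and 0 of 6 striatal or cholinergic markers changed. Of 5 oligodendrocyte markers 1 fell (Cnp, -0.53 ± 0.18) and 1 of 11 progenitor markers rose (Sox1, 0.84 ± 0.27), and neither passed without 0 h repeat 2 or without either 6 h repeat. The astrocyte list averaged 10.18 and 10.44 at 0 h and 10.43 and 10.33 at 6 h. Fewer cells of a type and less RNA per cell cannot be told apart in such bulk cultures.

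After 6 h of KCl 3128 genes had changed, which is 25.3% of those tested. Of these 1180 rose (9.53% of the genes tested) and 1948 fell (15.7%). Counts of called members of any list are to be read beside these shares. The rises reached further than the falls. Over 2-fold there were 517 rises and 648 falls, over 4-fold 88 and 27, and over 8-fold 21 and 0. The median fold was 1.88 among the rises and 1.77 among the falls. The 6 h and 0 h arrays did not overlap for 1177 of the 1180 and for 1944 of the 1948, but this was also so for 57.3% of all genes tested. The share of rises among the calls, 37.7%, depended on the scaling: with cyclic loess normalization 1655 genes rose and 1234 fell (57.3% rises), as the median change over all genes moved from -0.05 to 0.07.

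The calls rest on a spread shared over all 24 arrays: fitted to the 4 arrays of the comparison alone, limma called 0 genes in either direction, with 2587 at an unadjusted p under 0.05. They also leaned on single arrays. Without 0 h repeat 2 there were 448 rises and 932 falls, and without 6 h repeat 1 there were 349 and 754. With 0 h repeat 1 left out, so that repeat 2 alone stood for the silenced state, there were 2488 and 2760. In each of the 4 fits that left out 1 array 948 of the 3128 genes were called (7.66% of the genes tested), 309 that rose and 639 that fell. Every gene named below as having risen or fallen is one of these 948 unless its sentence names the arrays its call needs. For 224 of the falls both 6 h arrays lay below the median intensity of their array, so these falls ended at a dim signal. Among those described below, the log2 change with 32 added to each intensity was -2.13 for Tha1 and -1.53 for Zkscan7. It was -1.06 for Nmb, -1.005 for Syt12 and -0.75 for Dusp2. For 122 of the rises both 0 h arrays lay below that median, so the start of the rise was measured at a dim signal. With 32 added to each intensity, the log2 rise of such genes described below was 3.54 for Calcrl, 3.17 for Rerg, 2.72 for Rspo3, 2.70 for Fosb, 2.69 for Sv2c, 2.61 for Npas4, 1.90 for Per2, 1.46 for Sv2b and 1.36 for Bdnf.

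**Figure D1:**
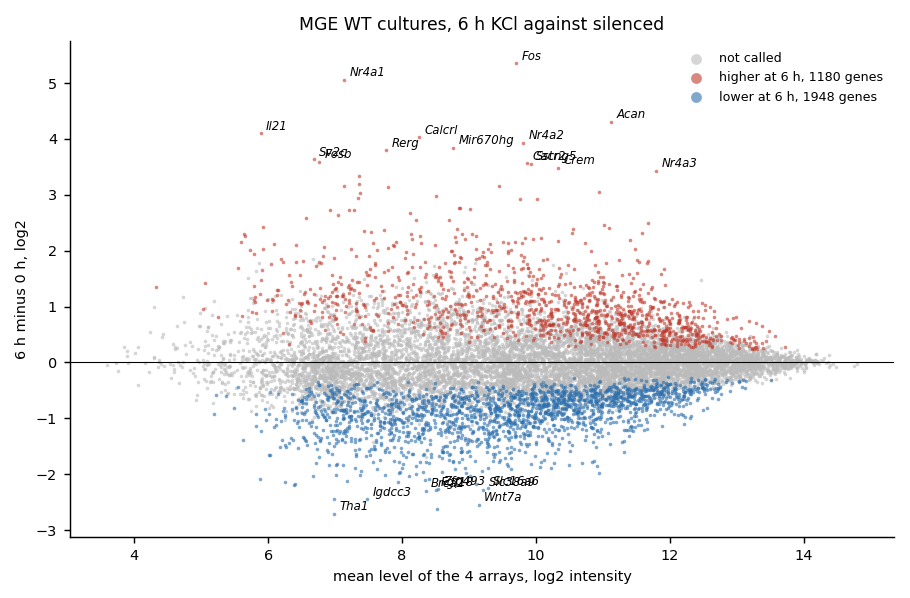
Change from 0 h to 6 h in MGE WT cultures (vertical axis, log2) against the mean level of the 4 arrays (horizontal axis, log2 intensity), 1 point per gene. The 1180 called rises reach further from 0 than the 1948 called falls.

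Transcription factors of the rapid response were among the genes that stood highest above the silenced state. Fos, a subunit of the AP-1 factor, measured 7.46 and 6.58 at 0 h and 12.75 and 12 at 6 h. Its 6 h arrays thus lay far above both 0 h arrays, and close to the 13.21 and 13.31 seen at 1 h. The rise was 40.9-fold (5.35 ± 0.36, limma adjusted p = 7.4e-07). Nr4a1, an orphan nuclear receptor, measured 4.71 and 4.50 at 0 h, 11.84 and 11.87 at 1 h, then 10.08 and 9.24 at 6 h. Its silenced arrays were dim, below the median intensity of their array, so the size of the rise depends on the signal there. It was 33.4-fold above 0 h (5.06 ± 0.23, limma adjusted p = 7.9e-09), or 3.91 in log2 with 32 added to each intensity, while below its 1 h level (-2.19 ± 0.23, limma adjusted p = 3e-05). Its relative Nr4a2 measured 8.88 and 6.80 at 0 h and 11.98 and 11.56 at 6 h, so that its silenced arrays differed by about as much as many genes changed. It rose 15.2-fold (3.93 ± 0.47, limma adjusted p = 7.7e-05) and its 6 h level did not pass against 1 h (0.33, adjusted p = 0.76).

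Nr4a3 was the most even of the group, at 10.10 and 10.05 at 0 h, 13.42 and 13.47 at 1 h, then 13.59 and 13.42 at 6 h. Both depolarized pairs lay well above the silenced pair, and the rise was 10.8-fold (3.43 ± 0.13, limma adjusted p = 1.1e-09). Another probe set of Nr4a3 did not show it, and the median over its probe sets gave -0.17. Fosb, the AP-1 subunit with a long-lived splice form, went from 5.18 and 4.74 to 9.29 and 7.82, a 12.1-fold rise (3.59 ± 0.43, limma adjusted p = 7.5e-05). At 1 h it had been at 11.24 and 11.71. Crem, whose ICER form represses CRE-driven genes, measured 8.59 and 8.58 at 0 h, 10.43 and 10.57 at 1 h, then 12.26 and 11.88 at 6 h. It was still above its 1 h level at 6 h (1.57, limma adjusted p = 0.0023), and 11.2-fold above 0 h (3.48 ± 0.28), or 1.57 in log2 as the median over its probe sets. Npas4 itself measured 5.70 and 5.84 at 0 h, 12.04 and 11.20 at 1 h, then 9.32 and 8.59 at 6 h. It thus stood between the silenced and the 1 h arrays, 9.11-fold above the former (3.19 ± 0.25, limma adjusted p = 1.9e-06).

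The median change of the 35 rapid-response genes tested was 0.83 against -0.05 over all genes. Of them 15 rose (42.9%, against 9.53% of all genes) and 0 fell. The count was 13 without 0 h repeat 2 and 8 without 6 h repeat 1. Of the Egr zinc-finger factors, Egr1 was back near the silenced state and Egr2 was far below its 1 h level. Egr1 measured 10.68 and 10.89 at 0 h, 13.46 and 13.40 at 1 h, then 11.08 and 10.76 at 6 h, and its change did not pass (0.14 ± 0.21, limma adjusted p = 0.68). Egr2 measured 6.85 and 7.49, then 12.10 and 12.10, then 8.23 and 7.85. It passed at 6 h (0.87 ± 0.27, limma adjusted p = 0.029), but not without 0 h repeat 1 or 6 h repeat 1.

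**Figure D2:**
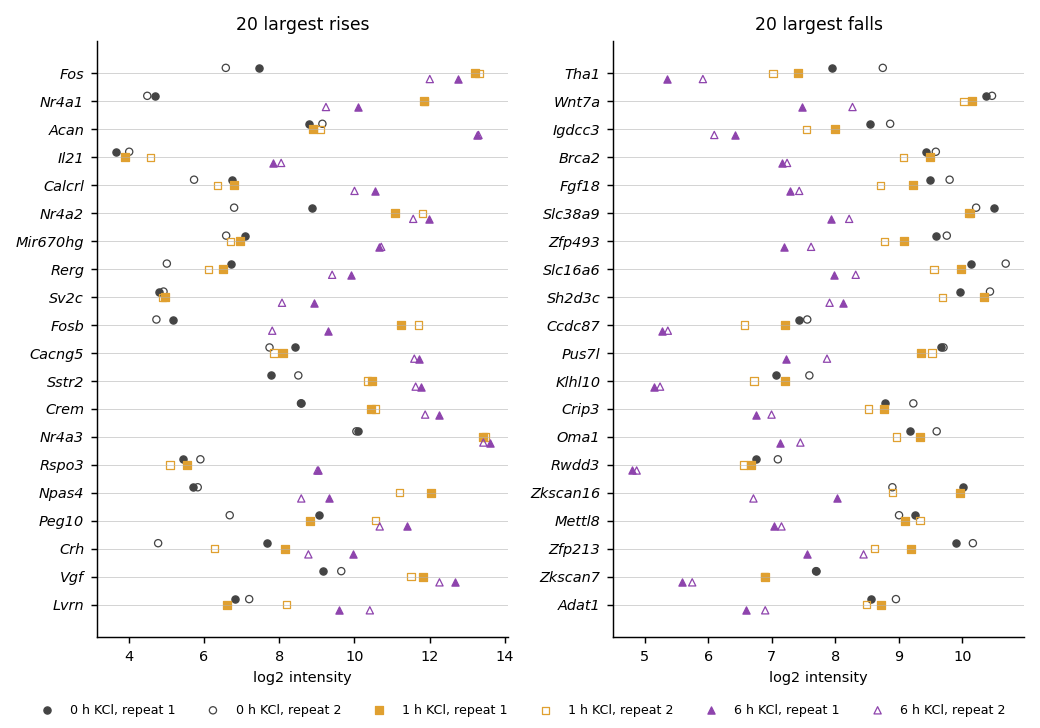
Log2 intensity (horizontal axis) in each of the 6 MGE WT arrays for the 20 largest rises and the 20 largest falls. Fos, Fosb, Nr4a1 and Npas4 lie highest at 1 h, while Acan, Il21 and Sv2c lie near their 0 h level at 1 h and rise by 6 h.

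Other genes rose wholly or in part after the first hour. Acan encodes aggrecan, the core proteoglycan of the perineuronal nets that surround many interneurons. It measured 8.78 and 9.15 at 0 h, 8.91 and 9.10 at 1 h, then 13.26 and 13.29 at 6 h. The 0 h and 1 h arrays thus lay together and the 6 h arrays far above them, a 19.8-fold rise over 0 h (4.31 ± 0.59, limma adjusted p = 0.00019). Adamts1, a protease that cuts aggrecan, rose 4.62-fold (2.21 ± 0.34, limma adjusted p = 0.00045), from 7.75 and 7.93 over 8.68 and 9.15 at 1 h to 9.99 and 10.11, so that it stood above its silenced level already at 1 h. Chst15, which sulfates the chondroitin chains of such proteoglycans, rose 2.64-fold (1.40 ± 0.27). Rises made up 19.2% of the perineuronal matrix genes tested, against 9.53% of all genes. Of 26 genes of the perineuronal matrix 5 rose and 0 fell, and 3 rose without 0 h repeat 2 or without 6 h repeat 1. The other members that rose were Has3 (1.27 ± 0.35), a hyaluronan synthase, and Ptprz1 (1.00 ± 0.25), a receptor phosphatase of the net, and neither passed without 0 h repeat 2 or without 6 h repeat 1. With 0 h repeat 1 left out 11 members rose and 1 fell.

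Several genes for secreted signals followed the same course. Il21, a cytokine best known from T cells, measured 3.65 and 4.02 at 0 h, 3.90 and 4.59 at 1 h, then 7.82 and 8.05 at 6 h. All 4 earlier arrays were at a dim signal and both 6 h arrays stood above them, by 17.2-fold over 0 h (4.10 ± 0.19, limma adjusted p = 9e-09), or by 2.58 in log2 when 32 was added to each intensity. Rspo3, a secreted enhancer of Wnt signalling, measured 5.46 and 5.91 at 0 h, 5.56 and 5.10 at 1 h, then 9.03 and 9.02 at 6 h, a 10.1-fold rise (3.34 ± 0.34, limma adjusted p = 1.8e-05). Wif1, a secreted Wnt inhibitor, measured 4.71 and 4.69 at 0 h and 6.89 and 7.37 at 6 h, a 5.40-fold rise (2.43 ± 0.17, limma adjusted p = 9.1e-07), or 1.57 in log2 with 32 added. The ligand gene Wnt7a went the other way, from 10.38 and 10.47 to 7.48 and 8.27, and was 5.85-fold lower (-2.55 ± 0.24, limma adjusted p = 1.1e-05). Over all genes tested 9.53% rose and 15.7% fell. Among 34 genes of the Wnt pathway 4 rose (11.8%) and 2 fell (5.88%), 3 and 1 without 0 h repeat 2 and 2 and 1 without 6 h repeat 1, so that most of the list was not called.

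Of 29 genes for secreted growth factors 6 rose and 2 fell, and without 0 h repeat 2 the counts were 2 and 1, without 6 h repeat 1 they were 1 and 1. Bdnf, the neurotrophin that excitatory neurons release with activity, measured 5.71 and 6.10 at 0 h and 7.70 and 7.65 at 6 h. The pairs did not overlap, and the rise was 3.41-fold (1.77 ± 0.45, limma adjusted p = 0.012), but it did not pass without 6 h repeat 1. Igf1, insulin-like growth factor 1, went from 9.78 and 10.01 to 12.41 and 12.19. This 5.30-fold rise (2.40 ± 0.65, limma adjusted p = 0.015) did not pass without 0 h repeat 2 or without 6 h repeat 1. Vegfa, the vascular growth factor, rose by 1.56 ± 0.36 under the same limits. Fgf18, a fibroblast growth factor, fell from 9.49 and 9.80 to 7.29 and 7.43, 4.87-fold lower (-2.29 ± 0.27, limma adjusted p = 7.5e-05). Of the growth factor list 20.7% rose and 6.9% fell, against 9.53% and 15.7% of all genes.

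Neuropeptide genes and the enzymes that process them changed for a few members. Vgf, a secretory granule protein that is cut into peptides, measured 9.17 and 9.65 at 0 h, 11.82 and 11.50 at 1 h, then 12.66 and 12.26 at 6 h. It had risen already at 1 h and was 8.29-fold above 0 h at 6 h (3.05 ± 0.43, limma adjusted p = 0.00024). Pcsk1, a convertase that cuts prohormones, rose 6.77-fold (2.76 ± 0.46, limma adjusted p = 0.00079), from 7.75 and 7.22 to 10.52 and 9.97. Cartpt, the precursor of CART peptides, rose 5.23-fold (2.39 ± 0.31, limma adjusted p = 0.00015), from 9.28 and 9.43 to 11.48 and 12. Nmb, the gene of neuromedin B, fell from 7.72 and 8.45 to 6.83 and 6.84 (-1.25 ± 0.21, limma adjusted p = 0.00092). Crh, corticotropin-releasing hormone, differed widely between repeats, at 7.67 and 4.79 at 0 h and 9.95 and 8.78 at 6 h. Its 8.80-fold change (3.14 ± 0.84, limma adjusted p = 0.015) did not pass without 0 h repeat 2 (adjusted p = 0.23) or without 6 h repeat 1. In all, 4 of 16 neuropeptide genes rose and 1 fell, with 1 and 1 without 0 h repeat 2 and likewise without 6 h repeat 1. Sst, the somatostatin gene, measured 13.94 and 13.63 at 0 h and 14.16 and 13.87 at 6 h, and did not pass (0.23 ± 0.29, limma adjusted p = 0.60).

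Genes for several receptors stood far above the silenced state. Sstr2, a somatostatin receptor that inhibits the cell, measured 7.78 and 8.51 at 0 h, 10.47 and 10.35 at 1 h, then 11.77 and 11.63 at 6 h. Each time point lay above the one before with no overlap, and the 6 h level was 11.7-fold above 0 h (3.55 ± 0.19, limma adjusted p = 6.8e-08). Calcrl, the receptor of CGRP and adrenomedullin when paired with its RAMP partners, rose 16.3-fold (4.03 ± 0.77, limma adjusted p = 0.002), from 6.74 and 5.74 to 10.53 and 10.00. Gpr3, a receptor that raises cAMP without a known ligand, rose 4.90-fold (2.29 ± 0.40). Cacng5, a TARP that escorts AMPA receptors, measured 8.43 and 7.74 at 0 h, 8.11 and 7.86 at 1 h, then 11.71 and 11.59 at 6 h. The 6 h pair stood alone, 11.8-fold above 0 h (3.56 ± 0.27, limma adjusted p = 1.8e-06), or 2.04 in log2 as the median over its probe sets.

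At the synapse, rises made up 18.4% of the vesicle release genes and 45.8% of the synaptic effectors, against 9.53% of all genes. Falls made up 5.26% of the vesicle release genes, against 15.7% of all genes. The genes of Sv2c and Sv2b, vesicle proteins of the SV2 family, both rose. Sv2c measured 4.80 and 4.93 at 0 h, 4.97 and 4.91 at 1 h, then 8.93 and 8.08 at 6 h. It was thus dim in every array before 6 h and rose 12.4-fold (3.63 ± 0.26, limma adjusted p = 9.1e-07). Sv2b went from 6.34 and 5.38 to 7.78 and 7.76, a 3.76-fold rise (1.91 ± 0.34, limma adjusted p = 0.0011). Syt4, a synaptotagmin, rose by 1.58 ± 0.25, or by 1.03 without 0 h repeat 2, while Syt12 fell (-1.35 ± 0.17). Of 38 genes for vesicle release 7 rose and 2 fell, 4 and 1 without 0 h repeat 2, 3 and 1 without 6 h repeat 1 and 4 and 1 without 6 h repeat 2. Nptx2, a pentraxin that gathers AMPA receptors, rose from 7.39 and 7.46 to 10.10 and 9.84. Its 5.84-fold rise (2.55 ± 0.60, limma adjusted p = 0.0072) did not pass without 6 h repeat 1. Arc, an effector at excitatory synapses, measured 6.41 and 6.34 at 0 h, 10.07 and 9.60 at 1 h, then 6.49 and 6.43 at 6 h, so that its rise at 1 h had ended and its change from 0 h did not pass (0.09 ± 0.34, limma adjusted p = 0.88). Of 24 genes for synaptic effectors 11 rose and 0 fell, with 9 rises without 0 h repeat 2 and 7 without 6 h repeat 1.

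The machinery of GABA itself was not called. Of 10 genes for GABA synthesis and transport 0 passed in either direction in limma, with 1 at an unadjusted p under 0.05 and 1 rise with cyclic loess, and their median change was 0.04. Gad1, which makes GABA, measured 12.75 and 12.48 at 0 h and 13.14 and 12.86 at 6 h (0.38 ± 0.30, limma adjusted p = 0.36), and Gad2 changed by 0.06 ± 0.26. Of 10 GABA receptor subunits 4 rose and 0 fell, and Gabra2 alone was called in each fit that left out an array. It measured 10.45 and 9.97 at 0 h and 11.64 and 11.62 at 6 h (1.42 ± 0.27, limma adjusted p = 0.0019). The other 3, Gabra4 (2.35 ± 0.57), Gabrg1 (1.32 ± 0.36) and Gabra5 (0.85 ± 0.26), did not pass without 6 h repeat 1 or without 0 h repeat 2. Gabra4 measured 7.66 and 4.86 in the silenced arrays, and its change was 0.95 without 0 h repeat 2. Rises made up 40.0% of the GABA receptor subunits tested, against 9.53% of all genes. Among 25 glutamate receptor genes and their auxiliary subunits 1 rose (4.0%), Cacng5, and 4 fell (16%), against 9.53% and 15.7% of all genes, with 1 fall without 0 h repeat 2, 6 h repeat 1 or 6 h repeat 2. Grm4, a presynaptic metabotropic receptor, measured 9.68 and 10.03 at 0 h and 8.42 and 7.94 at 6 h (-1.68 ± 0.29, limma adjusted p = 0.00095).

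Ion channels changed in both directions. Kcnj4, an inward rectifier, measured 8.03 and 8.31 at 0 h, 7.93 and 7.98 at 1 h, then 10.00 and 10.05 at 6 h. It rose 3.62-fold with no overlap (1.86 ± 0.16, limma adjusted p = 5.5e-06). Kcnn2, a calcium-activated channel that slows firing, rose 4.70-fold (2.23 ± 0.40), and Kcnf1, a silent subunit that modifies other channels, rose by 1.76 ± 0.33. Kcnd1, an A-type channel, fell from 9.55 and 10.04 to 8.08 and 8.35 (-1.58 ± 0.23, limma adjusted p = 0.00032), or -0.76 as the median over its probe sets. Of 46 potassium channel genes 9 rose (19.6%, against 9.53% of all genes) and 5 fell (10.9%, against 15.7%). The counts were 4 and 2 without 0 h repeat 2, 3 and 1 without 6 h repeat 1, 6 and 2 without 6 h repeat 2, and 15 and 5 without 0 h repeat 1. Cacna1d, the L-type calcium channel Cav1.3, which itself opens on depolarization, measured 11.21 and 11.13 at 0 h, 11.21 and 11.31 at 1 h, then 9.33 and 9.24 at 6 h. Its 3.69-fold fall (-1.88 ± 0.18, limma adjusted p = 1.4e-05), or -1.19 as the median over its probe sets, came after the first hour. The sodium channel gene Scn1a rose by 1.08 ± 0.23, or by 0.61 without 0 h repeat 2 (adjusted p = 0.05), the only call among 12 genes for sodium and HCN channels.

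Several inhibitors of the MAP kinase cascade, which is itself driven by calcium and growth factors, rose. Dusp4, a nuclear phosphatase of ERK, measured 10.25 and 9.31 at 0 h, 10.94 and 10.87 at 1 h, then 12.43 and 12.06 at 6 h, a 5.52-fold rise (2.47 ± 0.42, limma adjusted p = 0.00091). Dusp6, a cytosolic phosphatase of ERK, rose 3.78-fold (1.92 ± 0.34) and its 6 h level did not pass against 1 h (-0.35, limma adjusted p = 0.60). Trib1, a pseudokinase, rose 3.74-fold (1.90 ± 0.38). Dusp2 fell (-1.11 ± 0.21). The median change of 26 genes for such feedback was 0.47. Of them 12 rose (46.2%) and 2 fell (7.69%), against 9.53% and 15.7% of all genes. The counts were 7 and 2 without 0 h repeat 2 and 4 and 1 without 6 h repeat 1.

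Small GTPases and RGS proteins, which set the gain of such pathways, held single strong members. Rerg, a Ras-like protein, measured 6.71 and 5.02 at 0 h, 6.51 and 6.12 at 1 h, then 9.92 and 9.41 at 6 h. Its 6 h arrays lay above all 4 earlier ones, 13.9-fold above 0 h (3.80 ± 0.41, limma adjusted p = 3.2e-05). Rem2, a GTPase that restrains calcium channels, rose 3.72-fold (1.89 ± 0.29). Rgs7 rose 3.07-fold (1.62 ± 0.20). Of the small GTPases and RGS genes tested 20.7% rose and 17.2% fell, against 9.53% and 15.7% of all genes. Of 29 such genes 6 rose and 5 fell, 5 and 2 without 0 h repeat 2 and 4 and 2 without 6 h repeat 1.

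Among the genes of the circadian clock and the bHLH-PAS family 11 of 30 rose and 3 fell, and without 0 h repeat 2 the counts were 4 and 0, without 6 h repeat 1 they were 3 and 0. Per2, a repressor of the clock, measured 5.66 and 4.87 at 0 h, 5.45 and 5.67 at 1 h, then 8.33 and 7.38 at 6 h. This 6.01-fold rise came after the first hour (2.59 ± 0.31, limma adjusted p = 6.9e-05), and as the median over its probe sets it did not pass (0.41, adjusted p = 0.12). Per1, in contrast, started from 9.40 and 8.94, reached 10.30 and 10.43 by 1 h and stood at 10.49 and 10.28 after 6 h. Its level at 6 h was within 0.02 of that at 1 h and 2.32-fold above 0 h (1.21 ± 0.23, limma adjusted p = 0.002). Of the clock and bHLH-PAS list 36.7% rose and 10.0% fell, against 9.53% and 15.7% of all genes.

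**Figure D3:**
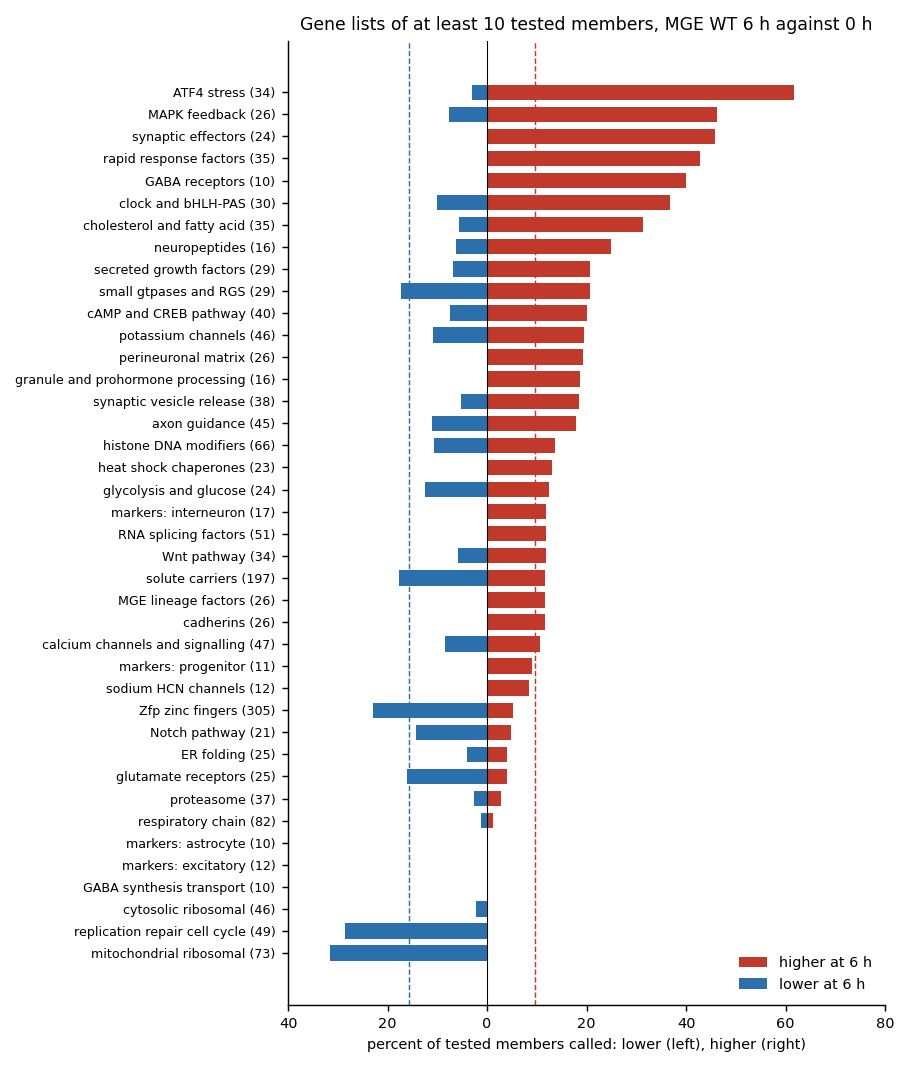
Percent of the tested members called higher (right) or lower (left) at 6 h in MGE WT cultures, for each gene list with at least 10 tested members, whose number is in brackets. Dashed lines mark the 9.53% and 15.7% of all genes called higher and lower. The ATF4 list has the longest bar to the right, with 21 of 34 members. The mitochondrial ribosomal list has the longest to the left, with 23 of 73. The lists were chosen with earlier results of these data known.

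In the fit reported, the list with the highest share of rises was that of genes linked to ATF4. This transcription factor drives amino acid synthesis, amino acid uptake and redox genes when translation initiation is restrained. The lists were chosen with earlier results of these data known, and their ranking was not tested. The median change of the 34 ATF4 members was 0.70. Of them 21 rose (61.8%) and 1 fell (2.94%), against 9.53% and 15.7% of all genes. The counts were 18 and 0 without 0 h repeat 2, where the median was 0.92, and 9 and 0 without 6 h repeat 1. Without 6 h repeat 1 or without 0 h repeat 1 the synaptic effectors had the higher share of rises, with 7 and 15 of 24 against 9 and 17 of 34. Psph, the last enzyme of serine synthesis, measured 8.52 and 8.07 at 0 h, 8.24 and 9.13 at 1 h, then 11.53 and 10.89 at 6 h. It rose 7.56-fold, most of it after the first hour (2.92 ± 0.37, limma adjusted p = 0.00012). Mthfd2, an enzyme of mitochondrial folate metabolism, rose 4.96-fold (2.31 ± 0.31, limma adjusted p = 0.00016), from 10.58 and 10.27 to 12.91 and 12.56. Slc7a11, the cystine transporter, rose 4.94-fold (2.31 ± 0.42), or by 1.42 in log2 with 32 added to each intensity, from a dim 4.58 and 4.38 to 7.53 and 6.04. Slc7a3, a carrier of arginine and lysine, rose 3.34-fold (1.74 ± 0.32).

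Trib3, a pseudokinase that ATF4 induces, measured 7.02 and 8.25 at 0 h and 10.57 and 9.46 at 6 h. Its 5.21-fold rise (2.38 ± 0.49, limma adjusted p = 0.0033) did not pass without 6 h repeat 1. Eif4ebp1, an inhibitor of cap-dependent translation, rose by 2.13 ± 0.53 under the same limit. Ddit3, the CHOP factor of the same pathway, did not pass (0.66 ± 0.27, limma adjusted p = 0.084). The member that fell was Wars, the tryptophan tRNA ligase (-0.66 ± 0.16), which did not pass without 0 h repeat 2 or 6 h repeat 1. Of 25 genes for protein folding in the endoplasmic reticulum and the unfolded protein response 1 rose and 1 fell. Each was 4.0% of the list, against 9.53% and 15.7% of all genes. The rise was Herpud1 (1.67 ± 0.24, limma adjusted p = 0.00029). The fall was Creld2 (-0.68 ± 0.19), which did not pass without 0 h repeat 2 or 6 h repeat 1. In that list 8 genes rose without 0 h repeat 1.

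**Figure D4:**
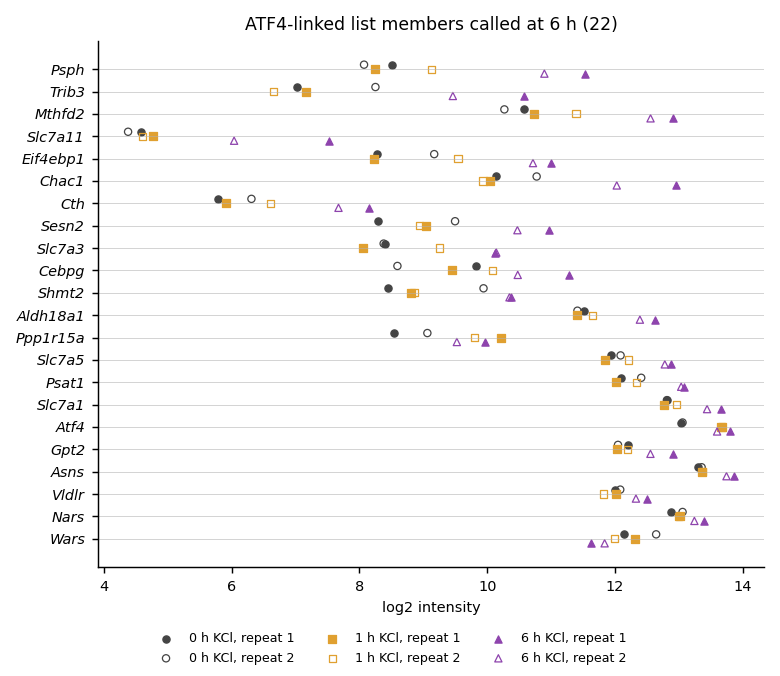
Log2 intensity (horizontal axis) in each of the 6 MGE WT arrays for the 22 called members of the ATF4 list, in the order of their change from 0 h to 6 h. For Psph and Mthfd2 both 6 h arrays lie above all 4 earlier arrays, and Wars at the bottom is the member that fell.

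Genes for cholesterol and fatty acid synthesis rose in part. Of those tested 31.4% rose and 5.71% fell, against 9.53% and 15.7% of all genes. Sc5d, a late enzyme of cholesterol synthesis, measured 10.60 and 10.79 at 0 h, 11.49 and 11.43 at 1 h, then 12.12 and 12.28 at 6 h. Each time point lay above the one before, for a 2.84-fold rise (1.51 ± 0.13, limma adjusted p = 3.5e-06), which as the median over its probe sets just missed the threshold (1.31, adjusted p = 0.051). Idi1, which isomerizes the isoprenoid building block, rose 2.12-fold (1.08 ± 0.19) and its 6 h level did not pass against 1 h (-0.15, limma adjusted p = 0.72). Of 35 such genes 11 rose and 2 fell, and 7 and 0 did so without 0 h repeat 2, 9 and 0 without 6 h repeat 1. Pyruvate dehydrogenase kinases, which hold back the entry of glucose carbon into the mitochondrial cycle, split: Pdk3 rose from 10.31 and 10.29 to 11.74 and 11.71 (1.43 ± 0.16, limma adjusted p = 4.4e-05), while Pdk2 fell (-1.32 ± 0.27), a call lost without 0 h repeat 2 (adjusted p = 0.052).

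In the scaling reported the falls were spread over more genes than the rises and were smaller. Tha1, a threonine aldolase gene, had the largest, from 7.94 and 8.75 at 0 h over 7.42 and 7.02 at 1 h to 5.35 and 5.91 at 6 h. It was 6.56-fold lower (-2.71 ± 0.32, limma adjusted p = 5.8e-05). Brca2, which guides DNA repair by recombination, measured 9.43 and 9.58 at 0 h, 9.49 and 9.07 at 1 h, then 7.17 and 7.24 at 6 h. The 6 h arrays stood apart from all 4 earlier arrays, 4.93-fold below 0 h (-2.30 ± 0.15, limma adjusted p = 5.7e-07). Mcm6, a subunit of the replicative helicase, fell from 10.80 and 11.17 to 9.14 and 9.35 (-1.74 ± 0.22, limma adjusted p = 0.00012), and Msh3, a mismatch repair protein, fell too (-1.41 ± 0.24). Of 49 genes for replication, repair and the cell cycle 0 rose and 14 fell, which is 28.6% against 15.7% of all genes. The falls numbered 9 without 0 h repeat 2, with 1 rise, and 10 with cyclic loess, where the median of the list moved from -0.21 to -0.01. The proliferation markers Mki67 (-0.23 ± 0.81) and Top2a (-0.11 ± 0.86) were not called.

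Genes named Zfp, most of which encode zinc-finger DNA-binding proteins, counted more falls than rises. Of 305 tested 70 fell and 16 rose, or 23.0% and 5.25%, against 15.7% and 9.53% of all genes. The counts were 39 and 3 without 0 h repeat 2, 33 and 2 without 6 h repeat 1 and 50 and 8 without 6 h repeat 2, while 73 fell and 36 rose without 0 h repeat 1. The median change was -0.21, and 0.04 with cyclic loess, where 48 fell and 25 rose. Zfp493 measured 9.58 and 9.75 at 0 h, 9.09 and 8.77 at 1 h, then 7.19 and 7.62 at 6 h. Each time point lay below the one before, down to 4.81-fold below 0 h (-2.27 ± 0.21, limma adjusted p = 8.7e-06). Zfp94 (-1.98 ± 0.27) and Zfp661 (-1.90 ± 0.22) fell by nearly as much. The related Zkscan7 measured 7.69 and 7.69, then 6.90 and 6.89, then 5.58 and 5.74, with repeats that lay closer together than the time points (-2.03 ± 0.19, limma adjusted p = 7.7e-06).

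Of 73 genes for mitochondrial ribosomal proteins 23 fell (31.5%, against 15.7% of all genes) and 0 rose. Their median change was -0.29, or -0.24 with cyclic loess. The falls numbered 3 without 0 h repeat 2, 2 without 6 h repeat 1 and 35 without 0 h repeat 1, so the count rests on those arrays. Mrpl10 fell from 9.65 and 9.46 to 8.40 and 8.41 (-1.14 ± 0.16, limma adjusted p = 0.00019), and Mrpl14 fell too (-0.86 ± 0.14, or -0.56 with cyclic loess). Of 46 genes for cytosolic ribosomal proteins 1 fell, Rps4l (-0.43 ± 0.12), which did not pass without 0 h repeat 2 or 6 h repeat 1, and their median change was -0.01, or -0.19 with cyclic loess. Of 82 genes of the respiratory chain 1 rose and 1 fell, 1.22% each. Falls made up 2.17% of the cytosolic ribosomal genes. Both lists lay below the 9.53% rises and 15.7% falls of all genes. Oma1, a protease of the inner mitochondrial membrane, was 4.29-fold lower (-2.10 ± 0.17, limma adjusted p = 1.9e-06), from 9.18 and 9.59 to 7.12 and 7.45.

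Enzymes that modify RNA bases were among the deepest single falls. Pus7l, of the pseudouridine synthase family, measured 9.67 and 9.70 at 0 h and 7.22 and 7.87 at 6 h (-2.14 ± 0.15, limma adjusted p = 1.1e-06), or -1.34 as the median over its probe sets. Mettl8, a methyltransferase of mitochondrial tRNA, measured 9.25 and 9.00 at 0 h and 7.03 and 7.15 at 6 h (-2.04 ± 0.21, limma adjusted p = 2.4e-05). Adat1, a tRNA adenosine deaminase, measured 8.57 and 8.95 at 0 h and 6.59 and 6.89 at 6 h (-2.02 ± 0.24, limma adjusted p = 6.9e-05). For all 3 the 1 h arrays were closer to the 0 h arrays than to those at 6 h. No list of such enzymes was tested, and they are named here because they are among the 20 largest falls.

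Transporters of the solute carrier families changed in both directions, 23 of 197 up and 35 down, 11.7% and 17.8% against 9.53% and 15.7% of all genes. The counts were 14 and 22 without 0 h repeat 2, 9 and 16 without 6 h repeat 1 and 45 and 42 without 0 h repeat 1. Slc16a6, of the monocarboxylate carrier family, fell from 10.13 and 10.68 to 7.98 and 8.32 (-2.26 ± 0.31, limma adjusted p = 0.00019). Slc9a8, a sodium-proton exchanger, fell too (-1.74 ± 0.32). Slc38a9, a lysosomal amino acid sensor, was 4.87-fold lower by the probe set used (-2.28 ± 0.34), while the median over its probe sets gave 0.14.

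Chromatin regulators counted 9 rises (13.6%) and 7 falls (10.6%) among 66, against 9.53% and 15.7% of all genes, with 3 and 3 without 0 h repeat 2, 2 and 3 without 6 h repeat 1, 4 and 4 without 6 h repeat 2 and 23 and 11 without 0 h repeat 1. Dot1l, the methyltransferase of histone H3, rose from 10.76 and 10.61 to 11.94 and 11.79 (1.18 ± 0.12, limma adjusted p = 2.3e-05). Dnmt3b, a de novo DNA methyltransferase, fell from 6.55 and 6.46 to 5.16 and 5.41 (-1.22 ± 0.13, limma adjusted p = 2.9e-05), or -0.79 with 32 added to each intensity. Of 51 splicing factor genes 6 rose and 0 fell, 1 without 0 h repeat 2, 2 without 6 h repeat 1 and 24 without 0 h repeat 1. Rbfox2, which steers neuronal exon choice, was the member called in each of these fits (1.21 ± 0.21, limma adjusted p = 0.0012). Of 45 genes for axon guidance 8 rose and 5 fell, 2 and 2 without 0 h repeat 2 or without 6 h repeat 1 and 7 and 3 without 6 h repeat 2. The semaphorin genes Sema3f (-0.99 ± 0.18, or -0.65 with cyclic loess) and Sema4f (-0.88 ± 0.16) were among the falls. Rises made up 11.8% of the splicing factors, 17.8% of the axon guidance genes and 11.5% of the cadherins, against 9.53% of all genes. Falls made up 11.1% of the axon guidance genes, against 15.7%. Of 26 cadherins 3 rose and 0 fell, 2 without 0 h repeat 2, 1 without 6 h repeat 1 and 9 without 0 h repeat 1, and Cdh11 (1.27 ± 0.21) was called in each fit.

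The 6 h arrays were also compared with those at 1 h. Since they are the same 6 h arrays, no overlap with the comparison above is counted. Against 1 h 506 genes were higher at 6 h (4.09% of the genes tested) and 1083 lower (8.75%). The total of 1589 became 485 without 6 h repeat 1, 1049 without 6 h repeat 2, 670 without 1 h repeat 1 and 1091 without 1 h repeat 2. Side by side, the changes from 0 h and from 1 h were 4.31 and 4.27 for Acan, 4.10 and 3.69 for Il21, 3.34 and 3.69 for Rspo3 and 3.56 and 3.67 for Cacng5. For Sstr2 they were 3.55 and 1.28, for Crem 3.48 and 1.57 and for Vgf 3.05 and 0.80. For Fosb they were 3.59 and -2.92, for Npas4 3.19 and -2.67 and for Nr4a1 5.06 and -2.19. Among the falls they were -2.55 and -2.22 for Wnt7a, -2.30 and -2.08 for Brca2 and -1.88 and -1.97 for Cacna1d.

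MGE cultures of Npas4 KO littermates, whose arrays are none of those above, gave 599 rises (4.84% of the genes tested) and 1519 falls (12.3%), or 733 and 1073 with quantile normalization. Of the 1180 WT rises 510 also rose in KO, which is 43.2% of the WT rises and 85.1% of the KO rises. Of the 1948 falls 1243 fell in both, 63.8% and 81.8%, and 0 genes were called in opposite directions. WT and KO arrays of equal repeat number were also close at 6 h. They correlated at 0.995 for repeat 1 and 0.989 for repeat 2, against 0.986 between the WT 6 h repeats. The shared calls may thus hold variation that the repeats have in common, and are not an independent check. Without KO 0 h repeat 1, the array so close to WT 0 h repeat 1, the KO calls were 324 rises and 684 falls, of which 283 and 607 were shared. The KO total of 2118 became 1052 without KO 6 h repeat 1 and 1203 without KO 6 h repeat 2. Changes of leading genes in WT and KO were 5.35 and 4.68 for Fos, 4.31 and 4.82 for Acan, 4.10 and 3.46 for Il21 and 3.56 and 3.70 for Cacng5. Rerg stood at 3.80 in WT and 1.99 in KO, and Per2 at 2.59 and 1.23. The test of the WT minus KO difference itself called 0 genes (0.0% of the genes tested) in limma, with 190 at an unadjusted p under 0.05. With 0 h repeat 1 of the WT left out it called 693, of which 659 were higher in WT. With 0 h repeat 2 of the WT left out it called 1, so the count turned on which silenced WT array was used. It also called 1 without KO 6 h repeat 1. Npas4 differed by 1.76 ± 0.35 (limma adjusted p = 0.58), and whether the deletion removes the sequence that its probe set reads was not checked here.

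CTX WT cultures under the same schedule gave 1297 rises (10.5% of the genes tested) and 3065 falls (24.8%), or 1710 and 2281 with quantile normalization. Their arrays at 6 h correlated at 0.965, with 980 genes over 2-fold apart, more than in any other group but MGE WT 0 h. Of the MGE rises 446 also rose in CTX, 37.8% of the MGE and 34.4% of the CTX rises, while 43 fell there. Of the MGE falls 1225 fell in CTX, 62.9% and 40.0%, while 19 rose. The difference of the responses was called for 1350 genes (10.9% of the genes tested). It was higher in MGE for 865 and lower for 485, or 675 and 648 with quantile normalization. The total of 1350 ranged from 539 without CTX 0 h repeat 2 to 3901 without MGE 0 h repeat 1. It was 774 and 677 without MGE 6 h repeat 1 and repeat 2, 698 without MGE 0 h repeat 2, 770 without CTX 0 h repeat 1 and 2504 without CTX 6 h repeat 1. It was called for 236 of the 1180 MGE rises and 265 of the 1948 MGE falls, against 1350 (10.9%) of all 12378 genes. Of the rises 187 went further up in MGE than in CTX and 49 less far. Of the falls 127 went further down in MGE and 138 less far. The rises and falls were chosen by the same MGE arrays that enter the difference. A larger number further in MGE can thus follow from the choice.

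**Figure D5:**
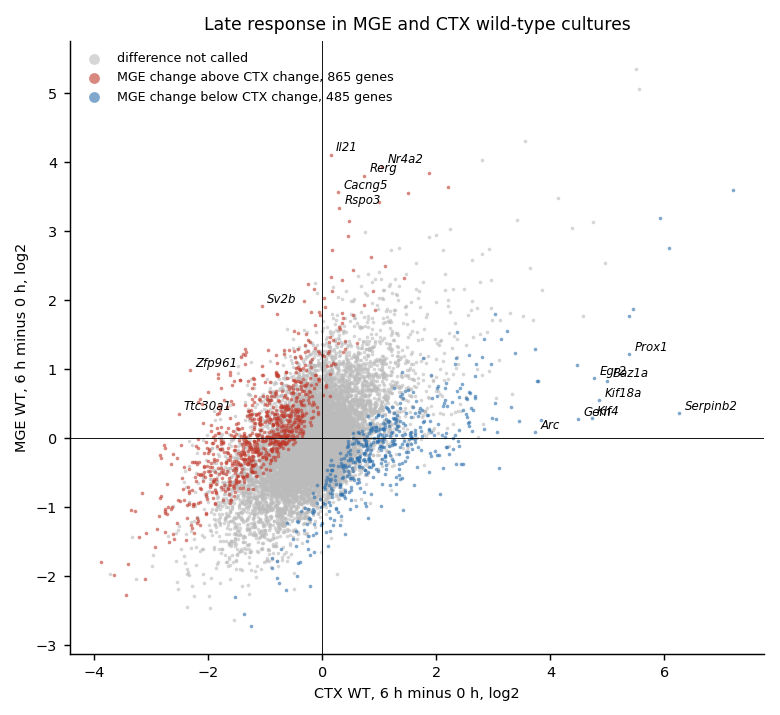
Change from 0 h to 6 h in MGE WT cultures (vertical axis, log2) against that in CTX WT cultures (horizontal axis, log2), 1 point per gene, coloured where the difference of the changes was called. Il21, Cacng5 and Rspo3 lie high on the MGE axis and near 0 on the CTX axis, and Serpinb2, Gem and Arc the reverse.

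In CTX arrays Il21 measured 3.87 and 3.75 when silenced and 4.08 and 3.84 after 6 h, so that its rise was not seen there (difference 3.96 ± 0.27, limma adjusted p = 3.5e-06). Cacng5 measured 7.39 and 7.44, then 8.08 and 7.28 in CTX (difference 3.29 ± 0.38, limma adjusted p = 0.00031). Rspo3 also changed more in MGE (difference 3.04 ± 0.48, limma adjusted p = 0.0017), but its silenced CTX arrays were already at 10.17 and 10.03, above the 6 h level of MGE. Nr4a3 (difference 2.43 ± 0.18, limma adjusted p = 5.6e-06) was similar by the probe set used, at 12.96 and 12.82 in silenced CTX arrays. Sstr2 rose in both, and by 2.06 ± 0.27 more in MGE (limma adjusted p = 0.00053). Rerg went up by 3.06 ± 0.59 more in MGE (limma adjusted p = 0.0052). As the median over probe sets the difference was 1.82 for Cacng5 and 2.02 for Rspo3, and with 32 added to each intensity it was 2.53 for Il21.

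In the other direction, several rapid-response and effector genes stood further above the silenced state at 6 h in CTX than in MGE. Arc measured 5.28 and 5.53, then 8.51 and 9.77 in CTX, against 6.41 and 6.34, then 6.49 and 6.43 in MGE (difference -3.65 ± 0.48, limma adjusted p = 0.00049). Egr2 measured 7.21 and 7.54, then 11.86 and 12.41 in CTX (difference -3.89 ± 0.38, limma adjusted p = 7.5e-05). Bdnf measured 7.74 and 6.79, then 12.98 and 12.32 (difference -3.61 ± 0.64, limma adjusted p = 0.0035). Npas4 itself rose by 5.92 in CTX and 3.19 in MGE (difference -2.73 ± 0.35, limma adjusted p = 0.00043). Of the 35 rapid-response genes 26 rose in CTX against 15 in MGE, and for 16 of them the difference was called with MGE lower, against 3 with MGE higher. Of the 34 ATF4 genes 13 rose in CTX and 22 in MGE KO, and for 1 the difference between MGE and CTX was called. The Zfp genes fell in larger number in CTX, 175 of 305 with a median of -0.75. For 56 of them the difference was called with MGE higher and for 7 with MGE lower. Over all 12378 genes tested it was called with MGE higher for 865 and lower for 485. The shares of all genes that rose were 10.5% in CTX, 9.53% in MGE WT and 4.84% in MGE KO. Falls made up 24.8% of all genes in CTX and 15.7% in MGE WT, so falls were more frequent in CTX over all genes too.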

How the data were processed

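Gene expression was measured on 24 Affymetrix mouse genome arrays, 2 repeats for each of 12 groups, from amplified total RNA. The deposited values are linear intensities, 1 per probe set, of 45101 probe sets, between 6.61 and 29464. Per the submitters' processing notes the authors used RMA, which adjusts background, normalizes between arrays and summarizes probes; its version and annotation are not given in the sources used here. Such a shared normalization can hide a shift of all genes.

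The deposited intensities were taken to log2 with no further scaling. Of the probe sets 34958 carried 1 gene symbol in the platform annotation, 932 carried several and 9211 none, and those with several or none were left out; 34754 were matched to RefSeq by Entrez number and 0 symbols changed. Each gene was read through its probe set with the highest mean, and kept where it exceeded the median intensity of the array on 2 or more arrays. limma 3.58.1 in R 4.3.3 was fitted to 12 group means over all arrays with empirical Bayes moderation (two-sided, Benjamini-Hochberg over 12378 genes). The fit was also run on simulated arrays, with independent noise and the same spread of a gene in every array. These held no outlying array and nothing shared between repeats, so that run does not check the calls reported here. The number of arrays limits the precision.

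Named genes are Npas4, the 20 largest called rises and falls without overlap between arrays and without clone names, up to 5 called members of each list in each direction and up to 2 uncalled ones, the 8 largest called differences between cultures in each direction, markers, and a few known activity genes. The members and lists were chosen with earlier results of these data known. Alternatives were another normalization, the probe set rule, the filter, an added intensity, an intensity trend, fewer arrays, a replicate block and leaving out each array.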

Additional observations from a re-analysis of the deposited data

Results flagged for a closer look

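For 16 genes the 6 h response of MGE WT cultures differed from that of CTX WT cultures by the interaction term of the limma fit; they are the 8 largest called differences in each direction. Higher in MGE were Il21 (3.96 in log2, limma adjusted p = 3.5e-06), Zfp961 (3.31, adjusted p = 0.026), Cacng5 (3.29, adjusted p = 0.00031), Rerg (3.06, adjusted p = 0.0052), Rspo3 (3.04, adjusted p = 0.0017), Sv2b (2.97, adjusted p = 0.0019), Nr4a2 (2.88, adjusted p = 0.015) and Ttc30a1 (2.87, adjusted p = 0.0055). Lower in MGE were Arc (-3.65), Egr2 (-3.89), Baz1a (-4.16), Prox1 (-4.17), Gem (-4.21), Kif18a (-4.30), Klf4 (-4.43) and Serpinb2 (-5.90).

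The differences arise in unlike ways. Sv2b rose in MGE, from 6.34 and 5.38 to 7.78 and 7.76, and fell in CTX, from 12.15 and 12.37 to 11.42 and 11.00. Ttc30a1, of the ciliary transport machinery, measured 7.93 and 6.65, then 7.52 and 7.77 in MGE, and 8.40 and 8.34, then 6.54 and 5.16 in CTX, so its difference lies in the CTX fall. Nr4a2 started at 11.40 and 11.74 in silenced CTX cultures, and its difference lost its call when MGE 6 h repeat 1 or CTX 0 h repeat 2 was left out, and as the median over its probe sets (adjusted p = 0.11). Serpinb2, an inhibitor of plasminogen activators, went from 3.89 and 3.49 to 10.30 and 9.60 in CTX. Gem, a GTPase that restrains calcium channels, went from 4.49 and 5.13 to 9.03 and 9.56 there, and Klf4, a zinc-finger factor, from 6.32 and 5.91 to 9.66 and 12.02. The difference of Prox1 lost its call when repeat 2 of either 6 h group or repeat 1 of the silenced CTX group was left out. As the median over probe sets the difference of Kif18a, a kinesin, was -2.48. The difference of Zfp961 lost its call in 6 of the fits that left out 1 array.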

How the results depend on the processing

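With 2 arrays a group, the number of calls depends on the spread that is assumed. With only the arrays of the groups compared, limma called 0 genes at 6 h against 0 h (0 higher, 0 lower; 2587 at an unadjusted p under 0.05) and 7 for the difference from CTX. With MGE arrays only 773 rose, and with cyclic loess 1234 fell. The WT minus KO difference gave 2 calls with no filter and 1 with the median over probe sets. Leaving out 1 array gave 1103 to 5248 calls in all (349 to 2488 higher, 754 to 2760 lower), 485 to 1091 against 1 h, 539 to 3901 for the difference from CTX, 0 to 693 for that from KO, 1008 to 1470 in KO and 3050 to 3938 in CTX. The labels do not say that equal repeat numbers share a preparation. The deviations of equal-numbered arrays correlated above 0 in 28 of 30 pairs of groups (0.64 between MGE WT 0 h and 6 h) and below 0 in 2, both with MGE WT 0 h (-0.23 with 1 h), a hint from the data of shared preparations that was not used in the fit. With the replicate block there were 3781 calls (1458 higher, 2323 lower), 2070 against 1 h, 2017 for the difference from CTX, 0 for that from KO, 2637 in KO and 5042 in CTX. Of the 218 named genes called in the fit reported, 194 kept their call with cyclic loess, 206 with quantile normalization, 216 with the block and 114 without 0 h repeat 2. As the median over probe sets 6 turned sign, to 0.34 for Gria4, 0.32 for Lrig1, -0.17 for Nr4a3, -0.06 for Psmc6, 0.14 for Slc38a9 and 0.42 for Slc4a8; the cause was not tested.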

Other observations

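Single members of other pathways rose and fell. Jag1, a Notch ligand, rose from 8.19 and 8.28 to 10.01 and 9.83 (1.68 ± 0.32, limma adjusted p = 0.0019), while its relative Jag2 fell from 11.43 and 11.43 to 10.42 and 10.59 (-0.93 ± 0.17, limma adjusted p = 0.0015). Of 21 Notch genes 1 rose (4.76%) and 3 fell (14.3%), no higher than the 9.53% and 15.7% of all genes, with 1 and 1 without 0 h repeat 2 or either 6 h repeat, and the median of the list turned from -0.22 to 0.07 with cyclic loess. In cAMP and CREB signalling 8 of 40 genes rose (20%) and 3 fell (7.5%), 3 and 2 without 0 h repeat 2 or 6 h repeat 1. Sik3, a kinase that holds CRTC coactivators in the cytoplasm, rose from 10.53 and 10.88 to 12.12 and 12.14 (1.43 ± 0.20, limma adjusted p = 0.00026). Crtc1, such a coactivator, fell from 11.42 and 11.33 to 10.75 and 10.68 (-0.66 ± 0.16, or -1.13 as the median over its probe sets), and so did Pde2a, a cyclic nucleotide phosphodiesterase (-1.15 ± 0.21).

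Other lists rested on single arrays. In the fit reported 10.6% of the calcium list rose and 8.51% fell, against 9.53% and 15.7% of all genes. Rises made up 13.0% of the heat shock list, 2.7% of the proteasome list and 11.5% of the MGE lineage list. Of 47 genes for calcium channels and calcium signalling 5 rose and 4 fell, and 0 and 3 did so without 0 h repeat 2. None of the rises, Cacnb2, Camk2d, Camk1d, Cacna1c and Atp2b1, was called there; for each the silenced arrays lay over 1 apart in log2, as for Camk1d at 11.39 and 9.67. Of 23 heat shock and chaperone genes 3 rose and 0 fell in the fit reported, and 0 rose without 0 h repeat 2 or without 6 h repeat 1. Of 37 proteasome genes 1 rose and 1 fell, and 9 fell without 0 h repeat 1. Of 26 transcription factors of the MGE lineage 3 rose, 0 without 0 h repeat 2 or 6 h repeat 1; St18, the largest, went from 5.33 and 4.48 to 7.66 and 6.19.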
